A study of Homo sapiens with 6 samples.

Results

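The genes described here are 40 named members of the response led by the transcription factor ATF4, out of 43424 gene symbols counted in the series. They were chosen by name, though with earlier results of these data known, and all 40 had at least 1 read. They fall into 11 stress effectors, 7 genes of amino acid synthesis and transport, 9 serine and one-carbon enzymes and 13 cytosolic aminoacyl-tRNA synthetases. HL-60 is a human acute myeloid leukaemia cell line. The 3 CIP-labelled libraries come from HL-60 cells, labelled wild type, kept for 6 months in Corydalis incisa (Thunb.) Pers. extract (CIP) at a concentration raised stepwise between 2 and 20 µg/ml. The 3 DMSO-labelled libraries come from HL-60 cells, also labelled wild type, kept in DMSO for 6 months. The series describes the CIP cells as resistant to the extract and asks which genes take part in the differentiation that the extract induces. RNA was read near the polyadenylated ends of transcripts (QuantSeq), so a transcript gives about one read whatever its length.

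ATF4 is the main effector of the integrated stress response. Kinases that sense amino acid shortage, unfolded protein, heme shortage or double-stranded RNA phosphorylate the initiation factor eIF2, which slows translation in general while ATF4 mRNA is translated more. ATF4 protein, paired with C/EBP partners, then binds a composite element known as the C/EBP-ATF response element (CARE) in genes for amino acid synthesis, amino acid uptake and tRNA charging. Because ATF4 is controlled largely at translation, its mRNA level need not follow its activity. Leukaemia cells draw on these genes for serine, glycine and the one-carbon units used in nucleotide synthesis.

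Because the element is the feature that defines many of these genes, it was looked up in their promoters first. RefSeq promoters of build GRCh38.p14, each running from 250 bases before to 50 bases after a transcription start given there, were matched by symbol for 32 of the 40 members. ALDH1L2, LARS1, NUPR1, PSPH, PYCR1, SHMT2, VARS1 and YARS1 are not in that table. The start is the first base of the gene span for 26 of the 32, and lies inside the span for DDIT3 (by 3 bases), TARS1 (269), TRIB3 (535), MTHFD1L (784), SLC3A2 (25590) and ASNS (56033). All distances below are from the start in the table. The motif searched was TGATGNAA on both strands. It was present in 11 of 32 member promoters (34.4%), against 170 of 10039 promoters of tested genes (1.69%) and 1003 of all 27305 promoters (3.67%). The 11 matches are shown as windows read in the direction of the motif, with the motif in capitals. The SLC3A2 window has 24 bases because the promoter sequence ends there, and the other 10 have 30.

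ATF3: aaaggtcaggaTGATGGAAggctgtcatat
CHAC1: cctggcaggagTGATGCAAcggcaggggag
ASNS: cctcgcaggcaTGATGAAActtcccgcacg
SLC3A2: ggagcTGATGTAAggagtcctgca
MTHFD1L: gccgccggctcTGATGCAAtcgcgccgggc
AARS1: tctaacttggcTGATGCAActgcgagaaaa
CARS1: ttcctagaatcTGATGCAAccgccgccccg
IARS1: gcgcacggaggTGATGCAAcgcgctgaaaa
MARS1: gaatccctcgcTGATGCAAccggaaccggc
NARS1: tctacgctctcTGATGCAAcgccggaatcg
TARS1: gctggaccagcTGATGCAAtcgaaaggcgc

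The variable base of the motif was C in 8 of the 11 windows. That form, TGATGCAA, stood in 6 of 10 synthetase promoters, against 54 of 10039 promoters of tested genes (0.538%). In AARS1 the match lay 187 bases before the start (window chr16:70289675-70289704, plus strand). In CARS1 it began 2 bases before the start (chr11:3057407-3057436, plus strand), in MARS1 4 bases before it (chr12:57488053-57488082, minus strand) and in IARS1 13 bases before it (chr9:92293692-92293721, plus strand). In TARS1 it began at base 3 from the start (chr5:33440956-33440985, minus strand) and in NARS1 at base 15 (chr18:57621804-57621833, minus strand). A match describes letters only, and says nothing of binding in these cells. The 250 bases before the start of AARS1 (chr16:70289507-70289756, minus strand) and of MTHFD1L (chr6:150866236-150866485, plus strand) are given whole because both genes fell and hold the motif well before the start used here. The MTHFD1L stretch lies wholly inside its gene span, which begins at 150865702. In AARS1 the capitals are the motif on the opposite strand.

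AARS1: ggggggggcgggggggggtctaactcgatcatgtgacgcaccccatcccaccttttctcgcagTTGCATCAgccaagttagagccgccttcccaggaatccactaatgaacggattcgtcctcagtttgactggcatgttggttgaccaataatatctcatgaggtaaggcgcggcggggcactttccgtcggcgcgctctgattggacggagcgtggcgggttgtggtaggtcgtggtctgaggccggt
MTHFD1L: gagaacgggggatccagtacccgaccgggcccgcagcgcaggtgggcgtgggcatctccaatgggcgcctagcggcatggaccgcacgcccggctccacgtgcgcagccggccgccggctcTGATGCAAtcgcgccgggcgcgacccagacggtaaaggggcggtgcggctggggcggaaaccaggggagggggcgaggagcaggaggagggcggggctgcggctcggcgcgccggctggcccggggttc

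The libraries were first compared with what their cell line label implies. Library totals ranged over 9314584 to 10868396 counts with the CIP label and 8143657 to 9759687 with the DMSO label. MPO, the granule peroxidase that HL-60 is known for, stood at 8672 ± 282 CPM (the usual depth-scaled count, here with TMM scaling, SD, n = 3) in CIP-labelled and 1.12 ± 0.323 CPM in DMSO-labelled libraries, and MYC, which HL-60 is known to carry in extra copies, at 279.8 ± 52.3 CPM with CIP and 41.7 ± 3.89 CPM with DMSO. Of the other 4 myeloid markers, ELANE stood at 332 ± 32.9 CPM with CIP and 591 ± 48.6 CPM with DMSO and AZU1 at 25.2 ± 4.86 CPM with CIP and 44.0 ± 5.84 CPM with DMSO, while PRTN3 (425 ± 70.4 CPM with CIP and 286 ± 18.8 CPM with DMSO) and CD33 (90.7 ± 5.26 CPM with CIP and 65.6 ± 7.60 CPM with DMSO) were higher with CIP. The MPO and MYC values with DMSO go against the label while the other 4 markers were expressed in both groups, so the groups are called by their labels. The 7 monocyte and macrophage markers summed to 34.3 to 44.1 CPM in CIP-labelled and 462 to 496 CPM in DMSO-labelled libraries, all 5 tested being lower with CIP, while CD14 had 2 counts in all with CIP and none with DMSO. The 6 lymphoid markers summed to 3.63 to 4.30 CPM with CIP and 80.1 to 99.2 CPM with DMSO, of which NKG7 alone made up 3.19 ± 0.442 CPM with CIP and 79.5 ± 12.2 CPM with DMSO. CD3D and CD3E were at 0 counts with DMSO and MS4A1 at 0 counts throughout, and 2 of 3 tested lymphoid markers were lower with CIP. The 7 stromal and epithelial markers summed to 58.7 to 131.9 CPM with CIP and 169 to 268 CPM with DMSO. FN1, which did not pass, held the largest part, 59.4 ± 33.1 CPM with CIP and 120.5 ± 29.1 CPM with DMSO. Of 6 tested, 1 was lower, PECAM1, at 3.12 ± 1.47 CPM with CIP and 38.0 ± 2.81 CPM with DMSO. The 5 erythroid and megakaryocyte markers summed to 2.15 to 3.46 CPM with CIP and 0 to 0.113 CPM with DMSO, and ITGA2B, the 1 tested, was higher with CIP (72 counts in all with CIP and 0 with DMSO, adjusted p = 1.7e-07). The part of these differences in the results on ATF4 genes was not tested. In bulk libraries, fewer cells of a type and less RNA per cell cannot be told apart.

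Most tested ATF4 genes were lower with the CIP label, while ATF4 mRNA itself showed no difference that passed the test. Of the 40 members, 35 had enough reads to be tested, and of these 21 fell, 6 rose and 8 did not pass (edgeR quasi-likelihood test, adjusted p under 0.05). The share that fell, 60%, stands beside 38.2% of all 12844 tested genes, and the share that rose, 17.1%, beside 34.9%. Their median log2 fold change (CIP over DMSO) was -0.30, against -0.03 over all tested genes. The share called in either direction was 77.1% against 73.1%, near the background, as were the 8 of 35 (22.9%) at least 2-fold lower, against 24.0%. A rise of at least 2-fold was found for 1 of 35 (2.86%) against 15.0%, a difference that was not tested. The libraries of the groups did not overlap for 26 of 35 (74.3%) against 75.4%. Only members that passed a filter on low counts enter these numbers.

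The summed level of all 40 members was 3731, 3683 and 3904 CPM in CIP-labelled libraries and 4649, 4685 and 4535 CPM in DMSO-labelled ones. The sum differed by role. Serine and one-carbon enzymes summed to 705 to 722 CPM with CIP and 1055 to 1083 CPM with DMSO, and amino acid genes to 428 to 443 CPM with CIP and 581 to 601 CPM with DMSO. The synthetases summed to 1930.2 to 2058 CPM with CIP and 2279.9 to 2372 CPM with DMSO. Stress effectors overlapped, at 599 to 694 CPM with CIP and 600.4 to 652 CPM with DMSO. Without ATF4 their sums overlapped too, at 223 to 240.1 CPM with CIP and 222.6 to 241.9 CPM with DMSO. Of that sum, ATF5 alone held 130 to 140 CPM with CIP and 14.8 to 17.6 CPM with DMSO. The overlap therefore does not mean that the other stress effectors were level.

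**Figure D1:**
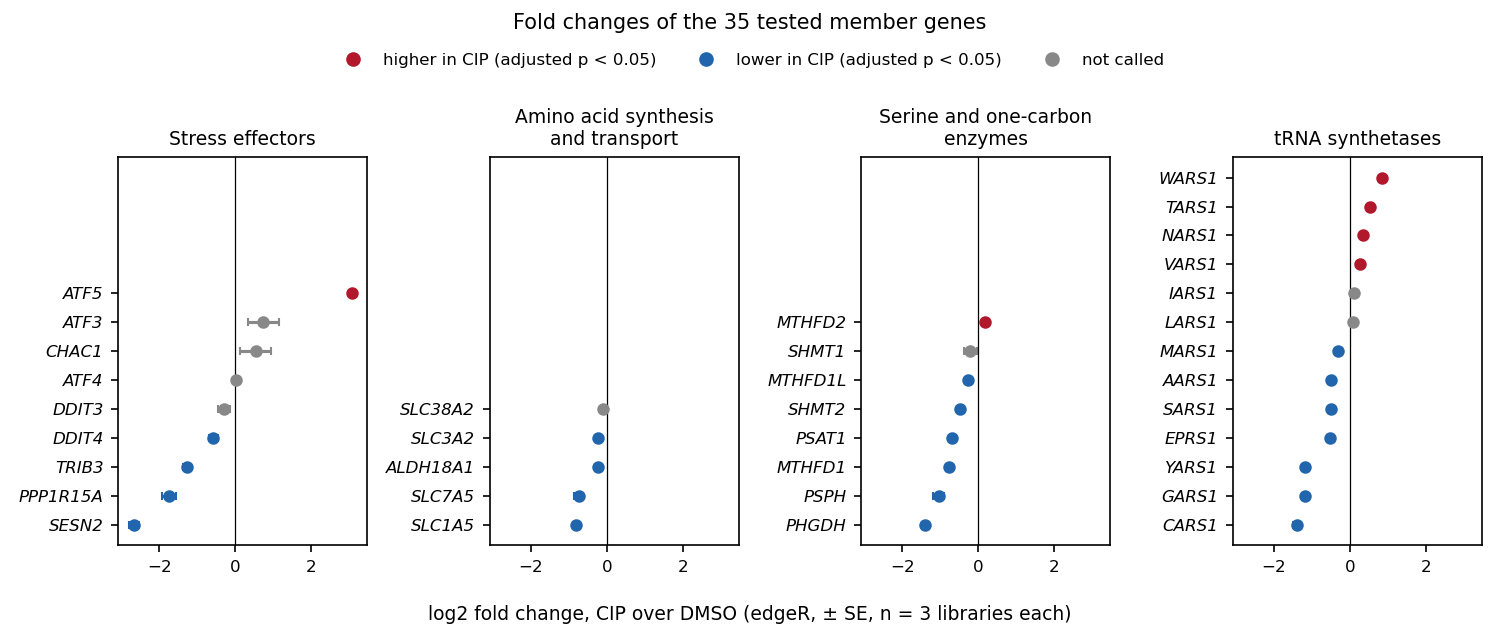
Log2 fold change (CIP over DMSO, x axis) of each of the 35 tested members by role, with bars for the SE of the edgeR fit on 3 libraries per group and colour for the call. ATF5 stands alone at 3.08 on the right, SESN2 is lowest at -2.66, and the synthetases run from -1.40 to 0.86.

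The stress effectors split into one gene that rose strongly, several that fell and the central factors that did not pass the test. Of 11, 9 were tested, and 1 rose, 4 fell and 4 did not pass, so that the share that fell, 44.4%, was near the 38.2% of all tested genes. ATF4 (chromosome 22, 39520559 to 39522686, positions here and below from RefSeq GRCh38.p14) had 395, 376 and 454 CPM in CIP-labelled libraries and 408.5, 429.5 and 358.5 CPM in DMSO-labelled ones. The groups overlapped, and the log2 fold change was 0.03 ± 0.07 (SE, adjusted p = 0.70). Scaled by library totals alone it was -0.20 (adjusted p = 0.010), on a scale that moves the median of all genes by -0.23. DDIT3, which encodes CHOP, the stress factor that promotes cell death, had 17.4, 14.9 and 20.7 CPM with CIP and 18.9, 21.3 and 24.8 CPM with DMSO. These groups overlapped as well (log2 fold change -0.29 ± 0.16, adjusted p = 0.098). DDIT3 passed as lower with library totals alone (0.0037), without CIP replicate 3 (0.031) and without DMSO replicate 1 (0.048). DDIT3 and MARS1 share 65 bases at their ends on chromosome 12, where 3' reads fall, and the strand setting of the counting is not given.

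ATF5 (chromosome 19, 49928906 to 49933935), a factor related to ATF4 whose mRNA is also translated more under stress, rose. It had 136.4, 130.2 and 139.98 CPM in CIP-labelled libraries and 14.8, 15.6 and 17.6 CPM in DMSO-labelled ones. Every CIP-labelled library was far above every DMSO-labelled one, with a log2 fold change of 3.08 ± 0.10 (8.47-fold, adjusted p = 1.4e-24). ATF5 overlaps NUP62 by 599 bases at its start, and NUP62 was lower with CIP, at 94.1 ± 8.16 CPM with CIP against 154.5 ± 9.29 CPM with DMSO.

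SESN2 (chromosome 1, 28259518 to 28282491), a leucine sensor that restrains the growth kinase mTORC1, fell most. It had 10.3, 10.5 and 9.165 CPM with CIP and 66.8, 56.8 and 65.6 CPM with DMSO, a log2 fold change of -2.66 ± 0.13 (6.31-fold lower, adjusted p = 3.1e-19). PPP1R15A (chromosome 19, 48872421 to 48876058) encodes GADD34, which returns eIF2 to its unphosphorylated form. It had 6.24, 8.49 and 12.2 CPM with CIP and 28.5, 28.0 and 34.2 CPM with DMSO. The CIP values spread widely but stayed below the others (log2 fold change -1.74 ± 0.18, adjusted p = 2.5e-10).

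TRIB3 (chromosome 20, 380760 to 397559), a pseudokinase that feeds back on ATF4 and CHOP, had 22.6, 22.1 and 24.1 CPM in CIP-labelled libraries and 56.0, 54.0 and 55.5 CPM in DMSO-labelled ones. The replicates lay close together in both groups, and the log2 fold change was -1.27 ± 0.11 (adjusted p = 2.7e-12). DDIT4 (REDD1), another inhibitor of mTORC1, fell less, to 27.1 ± 3.99 CPM with CIP against 40.6 ± 2.12 CPM with DMSO (log2 fold change -0.58 ± 0.12, adjusted p = 7.8e-05).

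The remaining stress effectors had low counts. ATF3, an immediate stress-induced factor, stood at 3.55 ± 1.52 CPM with CIP and 2.10 ± 0.320 CPM with DMSO (adjusted p = 0.11), and CHAC1, which breaks down glutathione, at 3.78 ± 1.11 CPM with CIP and 2.60 ± 1.23 CPM with DMSO (adjusted p = 0.23). ATF3 passed the test without CIP replicate 2 (log2 fold change 1.03, adjusted p = 0.028). STC2, a secreted glycoprotein, and NUPR1, a small stress-induced chromatin protein, had too few reads to be tested. STC2 had 1 count in all with CIP and 3 with DMSO, and NUPR1 had 1 with CIP and 9 with DMSO. A library's 3 counts, taken as its limit of detection, correspond to 0.287 to 0.346 CPM.

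**Figure D2:**
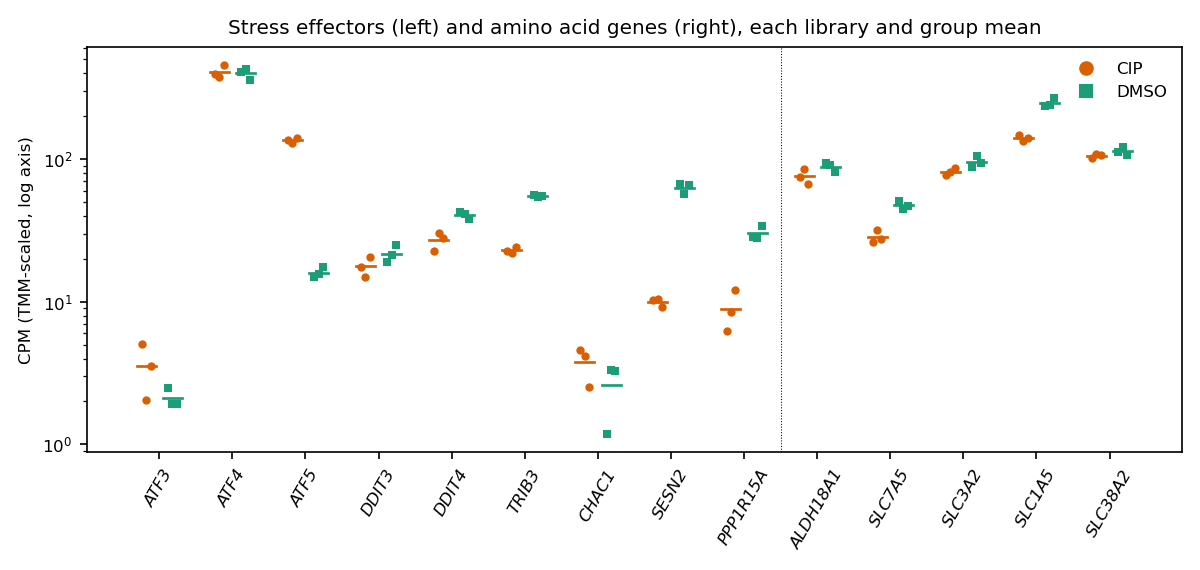
CPM of each library on a log axis (CIP circles, DMSO squares, lines for group means, n = 3 each) for the tested stress effectors and amino acid genes. ATF5 is 135.5 CPM on average with CIP and 16.0 CPM with DMSO, SESN2 9.99 CPM with CIP and 63.1 CPM with DMSO, and ATF4 408 CPM with CIP and 399 CPM with DMSO.

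Of 7 genes for amino acid synthesis and uptake, 5 were tested, and 4 fell, none by 2-fold, and SLC38A2 did not pass. The share that fell, 80%, stands beside 38.2% of all tested genes, of which 24.0% fell at least 2-fold. None rose, beside 34.9% of all tested genes. Of the 4 calls, those of SLC1A5 and SLC7A5 held with each library left out. SLC1A5 (ASCT2), the glutamine and neutral amino acid exchanger, fell most, to 141 ± 6.33 CPM in CIP-labelled libraries against 248 ± 17.2 CPM in DMSO-labelled ones (log2 fold change -0.82 ± 0.07, adjusted p = 1.7e-12). SLC7A5 (LAT1), the light chain of the large neutral amino acid exchanger, had 28.4 ± 2.89 CPM with CIP and 47.5 ± 3.02 CPM with DMSO (log2 fold change -0.74 ± 0.11). Its heavy chain SLC3A2 (CD98) moved less, to 81.9 ± 4.86 CPM with CIP against 95.65 ± 9.06 CPM with DMSO (log2 fold change -0.23 ± 0.08, adjusted p = 0.017). That call was lost without CIP replicate 1 (adjusted p = 0.10) and without DMSO replicate 2 (0.13). The ratio of SLC7A5 to SLC3A2 counts within a library, which does not depend on scaling, was 0.339, 0.390 and 0.315 with CIP and 0.576, 0.423 and 0.504 with DMSO, lower in every CIP-labelled library.

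ALDH18A1, the first enzyme of proline synthesis from glutamate, had 75.5 ± 8.79 CPM with CIP and 88.4 ± 6.53 CPM with DMSO. Its groups overlapped, and its call (adjusted p = 0.021) was lost in 4 of the 6 fits that leave out a library, without CIP replicate 1 (0.071), CIP replicate 3 (0.17), DMSO replicate 1 (0.097) or DMSO replicate 2 (0.052). Only 2 of the 4 calls in this group were therefore kept without CIP replicate 1 or DMSO replicate 2. SLC38A2 (SNAT2), a carrier of small neutral amino acids, stood at 105.5 ± 3.99 CPM with CIP and 113 ± 6.95 CPM with DMSO (adjusted p = 0.22), and was lower with library totals alone (adjusted p = 0.00016).

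ASNS, asparagine synthetase and the classical ATF4 target, had too few reads to be tested. It had 0 counts in each library with CIP and 4, 3 and 0 with DMSO, although its promoter holds the element shown above, 68 bases before the start. In RefSeq the readthrough gene CZ1P-ASNS covers 99.4% of ASNS, and that symbol had 5, 0 and 0 counts with CIP and 0, 3 and 10 with DMSO. The sources used here do not say how reads that match both genes were counted. Whether the few counts of ASNS come from this overlap or from little mRNA was not tested. Its count is therefore not taken as a measure of its mRNA. PYCR1, the mitochondrial enzyme of the last step of proline synthesis, had 12, 11 and 10 counts with CIP and 2, 0 and 0 with DMSO. It was higher in every CIP-labelled library, 17.1 times in summed counts (exact 95% interval 4.38 to 147), and when low counts were not filtered its adjusted p was 0.0020.

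The serine pathway was lower with the CIP label at each of its 3 steps, and the one-carbon enzymes beyond it were uneven. Of 9 genes, 8 were tested, and 6 fell (75%, against 38.2% of all tested genes), 1 rose (12.5% against 34.9%) and 1 did not pass. With library totals alone 7 were lower and 0 higher, where 5920 of all 12844 tested genes were lower and 3452 higher. PHGDH (chromosome 1, 119711934 to 119744215), which opens serine synthesis from a glycolytic intermediate, had 87.2, 90.2 and 101.6 CPM in CIP-labelled libraries and 236, 258 and 245 CPM in DMSO-labelled ones. The log2 fold change was -1.41 ± 0.07 (adjusted p = 2.4e-18). PSAT1, the aminotransferase of the next step, fell less, to 97.9 ± 2.26 CPM with CIP against 159 ± 16.9 CPM with DMSO (log2 fold change -0.70 ± 0.08). PSPH (chromosome 7, 56011064 to 56051444), the phosphatase that releases serine, had 15.5, 13.9 and 16.6 CPM with CIP and 31.7, 34.9 and 28.0 CPM with DMSO (log2 fold change -1.04 ± 0.14, adjusted p = 7.7e-08). PSPH has a pseudogene, PSPHP1, and whether reads were shared between them was not tested. The ratio of PHGDH to PSAT1 counts within a library was 0.868, 0.936 and 1.05 with CIP and 1.61, 1.70 and 1.37 with DMSO, without overlap.

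SHMT1 and SHMT2 split serine into glycine and a one-carbon unit, in the cytosol and in mitochondria in turn. SHMT2 (chromosome 12, 57229711 to 57234935) had 155.4, 153.7 and 152.7 CPM with CIP and 222, 215 and 209.6 CPM with DMSO. All CIP-labelled libraries were lower, with a log2 fold change of -0.49 ± 0.07 (adjusted p = 6.2e-08). SHMT1 (chromosome 17, 18327873 to 18363550) had 12.5, 16.9 and 15.1 CPM with CIP and 17.1, 15.1 and 19.5 CPM with DMSO, with overlap (log2 fold change -0.21 ± 0.17, adjusted p = 0.26, and 0.021 with library totals alone). The difference between the changes of the pair was not tested, and their count ratio overlapped, at 9.11 to 12.5 with CIP and 10.7 to 14.2 with DMSO. At the end where reads fall, SHMT1 shares 184 bases with SMCR8 (352 counts in all) and SHMT2 shares 33 bases with COXFA4L2.

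The MTHFD genes encode the folate enzymes that carry one-carbon units between formate and the folate pool. MTHFD1 (chromosome 14, 64388353 to 64460025), the cytosolic enzyme, had 69.7, 71.2 and 76.0 CPM with CIP and 126, 134 and 110.7 CPM with DMSO (log2 fold change -0.78 ± 0.08, adjusted p = 3.0e-10). MTHFD2 (chromosome 2, 74198615 to 74217565), the mitochondrial dehydrogenase and cyclohydrolase, had 143, 158 and 149 CPM with CIP and 127, 129.7 and 141 CPM with DMSO. This small rise (log2 fold change 0.18 ± 0.07, adjusted p = 0.027) turned to -0.05 when library totals replaced TMM scaling, and it did not pass with DESeq2 (adjusted p = 0.069), nor without CIP replicate 2 (0.087), DMSO replicate 1 (0.13) or DMSO replicate 2 (0.10). Set against MTHFD1 within a library, a ratio that no scaling affects, MTHFD2 was higher in every CIP-labelled library. The ratio of MTHFD2 to MTHFD1 counts was 2.05, 2.22 and 1.96 with CIP and 1.00, 0.970 and 1.28 with DMSO. At the end where reads fall, MTHFD1 shares 10920 bases with ZBTB25 (545 counts in all). MTHFD2 shares 1324 bases there with SLC4A5 (6 counts in all). The part of these overlaps in the ratio was not tested. MTHFD1L, which makes formate in mitochondria, fell to 114.8 ± 5.45 CPM with CIP against 139 ± 12.2 CPM with DMSO (log2 fold change -0.28 ± 0.08, adjusted p = 0.0014). ALDH1L2, which oxidises mitochondrial formyl-folate, had too few reads to be tested, 13 in all with CIP and 8 with DMSO.

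**Figure D3:**
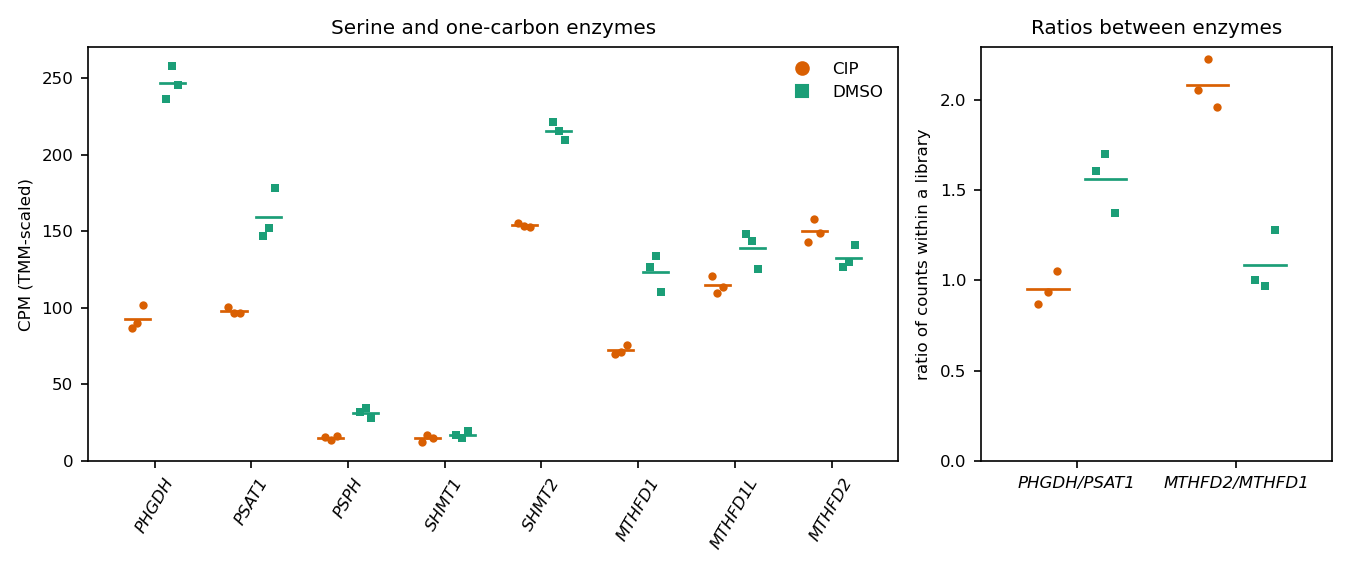
Left, CPM of each library for the 8 tested serine and one-carbon enzymes; right, ratios of counts between enzymes within each library (CIP circles, DMSO squares, lines for group means, n = 3 each). PHGDH is 93.0 CPM on average with CIP and 246.6 CPM with DMSO, and the ratio of MTHFD2 to MTHFD1 is 2.08 ± 0.134 with CIP and 1.08 ± 0.168 with DMSO (SD).

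The tRNA synthetases, which join amino acids to their tRNAs, did not move as a block. All 13 were tested, and 7 fell, 4 rose and 2 did not pass. The share that fell, 53.8%, stands beside 38.2% of all tested genes, while the share that rose, 30.8%, was near the 34.9%. At least 2-fold lower were 3 of 13 (23.1%), near the 24.0% of all tested genes. CARS1 (cysteine, chromosome 11, 3000929 to 3057423) had 51.8, 54.4 and 61.5 CPM in CIP-labelled libraries and 147.7, 153.6 and 142 CPM in DMSO-labelled ones (log2 fold change -1.40 ± 0.08, adjusted p = 5.5e-17). GARS1 (glycine, chromosome 7, 30594735 to 30634033) had 125.9, 119 and 122.5 CPM with CIP and 295, 286 and 255 CPM with DMSO (log2 fold change -1.19 ± 0.07, adjusted p = 8.7e-17). YARS1 (tyrosine, chromosome 1, 32775239 to 32817358) had 88.8, 78.1 and 88.0 CPM with CIP and 209.4, 186 and 181 CPM with DMSO (log2 fold change -1.18 ± 0.08, adjusted p = 1.1e-15). In these 3 genes the highest CIP-labelled library lay well below the lowest DMSO-labelled one.

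AARS1 (alanine), EPRS1 (glutamate and proline) and SARS1 (serine) fell by 0.50 to 0.52 on the log2 scale, each without overlap between groups (adjusted p at most 1.7e-06). EPRS1, the most abundant of them, stood at 277.6 ± 7.14 CPM with CIP and 397.7 ± 14.7 CPM with DMSO. MARS1 (methionine) stood at 93.2 ± 12.8 CPM with CIP and 114.6 ± 5.31 CPM with DMSO (log2 fold change -0.30 ± 0.09, adjusted p = 0.0022), which did not pass without CIP replicate 2 (0.052). Beyond DDIT3, MARS1 also overlaps ARHGAP9, by 757 bases at its start.

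WARS1 (tryptophan), which interferon is known to induce, rose most, to 91.5 ± 8.81 CPM with CIP against 50.5 ± 3.31 CPM with DMSO (log2 fold change 0.86 ± 0.09, adjusted p = 3.4e-10). TARS1 (threonine) stood at 320.9 ± 9.27 CPM with CIP and 221 ± 2.25 CPM with DMSO (log2 fold change 0.53 ± 0.06, adjusted p = 3.5e-09). NARS1 (asparagine) rose by a log2 fold change of 0.36 ± 0.06 (adjusted p = 7.7e-06) and VARS1 (valine) by 0.28 ± 0.08 (adjusted p = 0.0027), and with library totals alone these were 0.13 and 0.05 and did not pass (adjusted p = 0.065 and 0.60). IARS1 (isoleucine) stood at 76.4 ± 9.52 CPM with CIP and 70.6 ± 5.39 CPM with DMSO (adjusted p = 0.28), and LARS1 (leucine) at 161 ± 11.7 CPM with CIP and 152 ± 1.49 CPM with DMSO (adjusted p = 0.29). IARS1 passed as higher without CIP replicate 3 (log2 fold change 0.23, adjusted p = 0.030).

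The motif shown earlier stood in genes of every direction. Of the 6 synthetases with it, AARS1, CARS1 and MARS1 fell, NARS1 and TARS1 rose and IARS1 did not pass. Over the 30 tested members with a promoter in the table, the motif was found in 5 of 18 that fell, 2 of 5 that rose and 3 of 7 that did not pass, and of the 2 untested ones ASNS held it. TRIB3, SESN2 and PHGDH, among the members that fell most, had no match in their windows, which do not reach beyond 250 bases before the start. The TRIB3 window lies wholly inside its gene span, so the sequence before that gene was not searched.

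The other cytosolic synthetases and their scaffolds were mostly higher with the CIP label. Of 7 such enzyme genes, with TARS3 left out, 6 rose and 1 fell. The 20 cytosolic enzyme genes, again without TARS3, held 10 that rose, 8 that fell and 2 that did not pass. FARSA, a subunit of the phenylalanine enzyme, stood at 349.6 ± 1.74 CPM in CIP-labelled libraries and 139 ± 6.49 CPM in DMSO-labelled ones (log2 fold change 1.33 ± 0.07, adjusted p = 7.1e-19), and RARS1 (arginine) at 175 ± 4.41 CPM with CIP and 95.9 ± 4.30 CPM with DMSO. The 3 scaffolds of the multi-synthetase complex, AIMP1, AIMP2 and EEF1E1, all rose, with EEF1E1 at 71.3 ± 13.1 CPM with CIP and 30.1 ± 1.93 CPM with DMSO. Of the 8 enzymes of that complex 3 rose, 3 fell and 2 did not pass. These shares were near the 34.9% that rose and 38.2% that fell of all tested genes. TARS3, a second threonine enzyme, fell to 6.26 ± 2.44 CPM with CIP against 20.3 ± 1.73 CPM with DMSO (log2 fold change -1.68). With TARS3 and the scaffolds, 9 of these 11 genes rose (81.8%, against 34.9% of all tested genes), and 7 did with library totals alone. Whether they differ from the 13 enzymes was not tested.

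**Figure D4:**
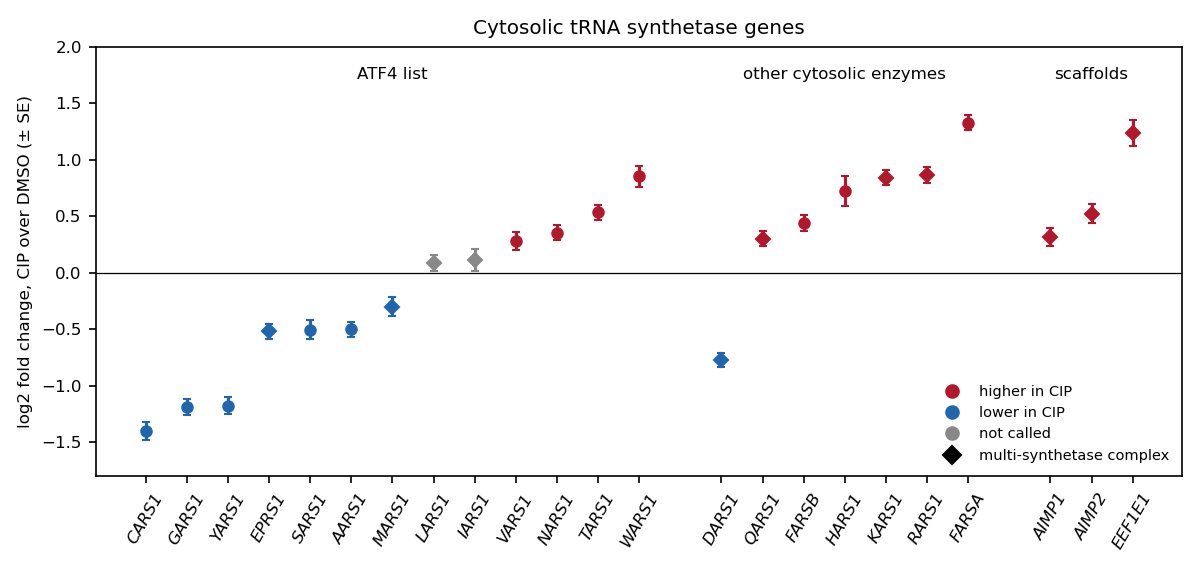
Log2 fold change (CIP over DMSO, y axis, ± SE of the edgeR fit, 3 libraries per group) of the 13 cytosolic synthetases of the ATF4 list, 7 other cytosolic enzyme genes and 3 scaffolds, with diamonds for the multi-synthetase complex. The 13 run from -1.40 to 0.86 and have a median of -0.30, and 6 of the other 7 lie above 0. TARS3, which fell, is not shown.

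Mitochondrial synthetases were split evenly, with 7 of 17 higher and 7 lower (41.2% each, and 5 higher with library totals alone). Of all tested genes, 34.9% were higher and 38.2% lower. MARS2 stood at 23.5 ± 3.02 CPM with CIP and 11.5 ± 1.79 CPM with DMSO, and YARS2 and NARS2 rose as well.

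Upstream of ATF4, 9 of 17 genes for eIF2, its exchange factor, its kinases and their regulators rose (52.9%, against 34.9% of all tested genes) and 5 fell (29.4% against 38.2%), and with library totals alone 5 rose and 6 fell. EIF2AK3 (PERK), the kinase of the endoplasmic reticulum, rose to 14.4 ± 2.60 CPM with CIP against 6.28 ± 1.19 CPM with DMSO (log2 fold change 1.20 ± 0.22, adjusted p = 1.3e-05). IMPACT, which inhibits the amino acid sensing kinase GCN2, stood at 132.7 ± 5.33 CPM with CIP and 26.9 ± 3.36 CPM with DMSO (log2 fold change 2.31 ± 0.09, adjusted p = 2.2e-21). EIF2B1, a subunit of the exchange factor, rose to 53.3 ± 3.43 CPM with CIP against 26.1 ± 1.97 CPM with DMSO, while EIF2S1, the subunit of eIF2 that the kinases phosphorylate, fell to 42.4 ± 2.51 CPM with CIP against 84.6 ± 7.04 CPM with DMSO. Phosphorylation was not measured.

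Among 21 further genes linked to ATF4, 17 were tested, and 7 fell and 5 rose (9 and 5 with library totals alone). These shares, 41.2% lower and 29.4% higher, were near the 38.2% and 34.9% of all tested genes. SLC7A11 (xCT), the cystine carrier, stood at 11.9 ± 1.47 CPM with CIP and 47.6 ± 1.16 CPM with DMSO (log2 fold change -2.00 ± 0.13, adjusted p = 2.4e-15), and SLC1A4, a carrier of serine and alanine, at 43.7 ± 3.71 CPM with CIP and 163 ± 4.47 CPM with DMSO (-1.90 ± 0.08, adjusted p = 1.2e-20). In the other direction BCAT1, the branched-chain aminotransferase, stood at 240.0 ± 3.59 CPM with CIP and 70.6 ± 1.96 CPM with DMSO, and TXNIP, an inhibitor of glucose uptake, at 285.6 ± 15.4 CPM with CIP and 65.2 ± 2.77 CPM with DMSO. Of 22 other genes of one-carbon and proline metabolism, 18 were tested, and 9 rose and 7 fell, with 6 and 8 under library totals alone. The share that rose, 50%, stands beside 34.9% of all tested genes, and the share that fell, 38.9%, was near the 38.2%. MTHFD2L, a paralog of MTHFD2, rose to 27.3 ± 4.23 CPM with CIP against 7.57 ± 0.494 CPM with DMSO. MTR, methionine synthase, fell to 92.9 ± 11 CPM with CIP against 307 ± 14.6 CPM with DMSO, and AMT of the glycine cleavage system to 1.58 ± 0.179 CPM with CIP against 16.96 ± 2.83 CPM with DMSO. GGH, which trims the glutamate tail of folates, had 417 counts in all with CIP and 3 with DMSO, a ratio of 144 (exact 95% interval 49.0 to 702).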

How the data were processed

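The authors deposited raw counts of reads per gene symbol, with a file for each library. Per the submitters' processing notes, bcl2fastq 2.20.0.422, fastp, STAR and HTSeq were used with GRCh38, with no role or setting. The sources used here give neither the strand setting nor the annotation release nor how reads matching several genes were handled. Of the 40 members, 18 overlap another RefSeq gene. Whether replicates were separate cultures is not stated; p-values then cover the spread between these samples alone, perhaps a technical one. Replicates were not duplicates of each other (mean chi-square of a gene 3.90 to 8.14 between pairs).

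Counts were tested with edgeR 4.0.16 (R 4.3.3; filterByExpr, TMM, robust quasi-likelihood test on group, 2-sided, Benjamini-Hochberg over 12844 genes). The same fit was run on simulated counts with 200 changed genes. It recovered 14 of 67 changes of 1.5-fold, 53 of 67 of 2-fold and 66 of 66 of 4-fold, with 5 false calls. Because few genes changed there, in both directions, it does not check scaling or error where most genes differ, as here. SE is the log2 fold change divided by the square root of F. CPM uses TMM-scaled library totals. Intervals and the limit of 3 counts cover counting error only. An exact permutation test of 3 against 3 libraries cannot go below 0.10 and was not used. Members, lists and ratios were chosen with earlier results of these data known. Values of every library are given for called members with a log2 fold change of at least 1 in size and 10 CPM in the higher group, and for 7 fixed genes; from each other list up to 4 called genes at 5 CPM or more with the largest changes could be named, the others named being chosen after their values were seen. Alternatives were RLE scaling, library totals, other low-count filters, DESeq2 1.42.0, limma-voom (limma 3.58.1), the replicate block, a test beyond 1.5-fold and each library left out.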

Additional observations from a re-analysis of the deposited data

How the results depend on the processing

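Of 490 refitted values of the 35 tested members, 454 kept their direction and their side of the threshold, or their lack of a call. Of the rest, 27 were no longer called, 7 became called and 2 changed sign with a call in the main fit or the refit. Sign changes with no call in either fit are among the 454. Such were ATF4 without CIP replicate 3 (-0.04) or DMSO replicate 3 (-0.05), and IARS1 (-0.12) and LARS1 (-0.15) with library totals alone. The 2 with a call came with library totals alone. ATF4 went to -0.20, called there, and MTHFD2 to -0.053 on the log2 scale, called in the main fit only. On that scaling the median of all genes moved by -0.23, and 63.2% in place of 52.3% of called genes were lower. There the count of members that rose was 3 in place of 6, of synthetases 2 and of serine and one-carbon enzymes 0. ATF4, DDIT3, SLC38A2 and SHMT1 were then called lower. Testing for change beyond 1.5-fold, a stricter question, called 5811 genes (2470 higher) in place of 9394, and 13 members, 2 higher and 11 lower. By role it called 1 amino acid gene lower, 3 synthetases lower and 1 higher, and 0 serine and one-carbon enzymes higher. DESeq2 called 0 serine and one-carbon enzymes higher, and without a low-count filter 1 amino acid gene, PYCR1, was higher.

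Leaving out 1 library at a time gave 9152 to 9552 called genes (4316 to 4466 higher, 4829 to 5086 lower) and 24 to 28 members (5 to 7 higher, 19 to 21 lower). By role, higher and then lower counts ranged over 1 to 2 and 4 to 5 for stress effectors, 0 to 1 (PYCR1, where it had enough reads) and 2 to 4 for amino acid genes, 0 to 1 and 6 to 6 for serine and one-carbon enzymes, and 4 to 5 and 6 to 7 for synthetases. Same-numbered libraries did not deviate together (correlations -0.03 to -0.01). Samples can share a culture or preparation without such a correlation, so this does not settle whether the numbers pair them. With the replicate block 9061 genes and 27 members were called. Low counts limit ASNS, STC2, NUPR1, PYCR1 and ALDH1L2.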
